A study of Mus musculus with 18 samples.

Results

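Chrnb3, Amigo1, Stmn4 and Apln are 4 of the 55487 genes in the count table of mouse frontal cortex, and they were chosen by their counts, which were lower in APP/PS1 than in WT mice. Messenger RNA was sequenced from the frontal cortex of 18 mice aged 9 to 10 months, 6 of each of 3 genotypes, with 3 females and 3 males per genotype. The question put to the 4 genes was where the APP/PS1/FTnKO mice, which had no part in the choice, stood beside the other genotypes, and how the genes varied from mouse to mouse. APP/PS1 mice carried the APP/PS1 transgenes, which model the amyloid of Alzheimer's disease. APP/PS1/FTnKO mice carried the same transgenes and, in addition, CamKIIα-Cre, which deletes the beta subunit of farnesyltransferase in forebrain neurons after birth. In the study's methods the 3 genotypes were littermates that all had both alleles of that subunit floxed, so WT meant floxed without Cre and without transgenes, whereas the design note of the record called the WT mice C57BL/6J. No group with the knockout and without APP/PS1 was analysed here, so the knockout was seen in amyloid mice alone.

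Chrnb3 codes for the beta3 subunit of nicotinic acetylcholine receptors, an accessory subunit known from the habenula, dopamine neurons and retina. Amigo1 is a leucine-rich repeat adhesion protein that sits in neuronal membranes as an auxiliary subunit of Kv2 potassium channels, and Stmn4 is a neuronal stathmin, a membrane-anchored protein that binds tubulin dimers. Apln is the precursor of apelin, a secreted peptide that marks endothelial tip cells at growing vessels, is induced by hypoxia and acts through the receptor Aplnr.

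In the annotation of build GRCm38, Chrnb3 (ENSMUSG00000031492) lies on chromosome 8 from 27368711 to 27399730 on the plus strand. Amigo1 (ENSMUSG00000050947) lies on chromosome 3 from 108186335 to 108192286 on the plus strand. Stmn4 (ENSMUSG00000022044) lies on chromosome 14 from 66344296 to 66361680 on the plus strand. Apln (ENSMUSG00000037010) lies on the X chromosome from 48025146 to 48034853 on the minus strand. The 4 genes are protein-coding, lie on 4 different chromosomes, and overlap no other annotated gene.

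Of the 4 promoters, 2 were matched in the RefSeq promoter table of build GRCm38.p6, those of Amigo1 and Apln. They are shown because the genes were read together, with the 250 bases before the transcription start written 5′ to 3′ on the gene's strand. Capitals mark matches, on either strand, to the TATA box (TATAAA), the GC box (GGGCGG), the core of the cyclic AMP response element (TGACG), the palindromic E-box (CACGTG), the core of the hypoxia response element (ACGTG), the core of the xenobiotic response element (GCGTG) or the CCAAT box. GCGTG is also a form of the hypoxia core, but the name hypoxia core is used here for ACGTG alone. The E-box holds ACGTG in both directions.
Amigo1, chr3:108186039-108186288, plus strand: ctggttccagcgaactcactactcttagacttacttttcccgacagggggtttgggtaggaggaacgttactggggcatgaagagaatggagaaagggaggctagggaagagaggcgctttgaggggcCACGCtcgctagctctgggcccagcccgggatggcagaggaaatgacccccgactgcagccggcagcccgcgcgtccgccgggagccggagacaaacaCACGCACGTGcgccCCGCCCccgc
Apln, chrX:48034854-48035103, minus strand: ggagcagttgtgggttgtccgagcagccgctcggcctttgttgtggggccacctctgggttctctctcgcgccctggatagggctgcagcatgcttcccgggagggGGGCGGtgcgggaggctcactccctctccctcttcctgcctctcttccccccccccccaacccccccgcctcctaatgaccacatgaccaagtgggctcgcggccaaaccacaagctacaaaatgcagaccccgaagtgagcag
The Amigo1 sequence held 1 GC box on the reverse strand, 1 E-box and 2 xenobiotic cores on the reverse strand, and the Apln sequence held 1 GC box. Among 32851 promoters of the same length, the GC box was found in 32.7%, the E-box in 6.02%, the hypoxia core in 16.6% and the xenobiotic core in 28.2%. The TATA box, the cyclic AMP core and the CCAAT box, found in 12.4%, 17.8% and 33.8% of promoters, were in neither window. The GC box was thus the 1 motif searched that both windows held, and both were rich in G and C, at 64.0% for Amigo1 and 65.2% for Apln beside a median of 52.4% over all promoters.

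WT mouse 19622, a female, was set apart from the start. Total counts ran from 15925432 to 21030935 per mouse, and mouse 19622, with 19330958, was inside that range. Its mean distance to its own genotype over the 500 genes that differed most between each pair of mice was 4.34 log2 units, whereas the other 17 mice had 1.96 to 2.55. Its summed normalized CPM (a count scaled to its library by TMM, a trimmed mean of ratios between libraries) of 9 cerebellar marker genes was 3526 beside 33.2 to 58.3 in the other WT mice, its sum of 10 excitatory neuron markers was 820 beside 6158 to 8224, and the cerebellar marker Gabra6, at 0 in the other WT mice, read 397 CPM. The values below are therefore from 17 mice, 5 WT with 2 females and 3 males, 6 APP/PS1 and 6 APP/PS1/FTnKO, and values with mouse 19622 are given for the 4 genes and for some of the gene lists. As a check of the labels, App read 1487 to 1623 CPM in WT mice, 2365 to 3087 in APP/PS1 mice and 2130 to 3641 in APP/PS1/FTnKO mice. Fntb, the floxed subunit, read 14.1 to 32.4, 14.3 to 32.0 and 7.84 to 14.6 CPM, at -0.77 on the log2 scale in APP/PS1/FTnKO against APP/PS1 (SE 0.26, edgeR FDR = 0.254), in tissue where only forebrain neurons lose it. The mice without Cre fell apart in Fntb. APP/PS1 mice 19553 and 19554 and WT mice 19718 and 19721 read 28.6 to 32.4 CPM, and mouse 19622 read 38.1. The other mice without Cre read 14.1 to 17.2, and the cause was not tested.

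Levels of the 4 genes can be compared with each other only per length of exon. In the 5 WT mice Stmn4 was the highest, at 85.2 ± 2.42 CPM per kb (SD), followed by Amigo1 at 23.9 ± 1.40, Apln at 9.51 ± 1.64 and Chrnb3 at 0.306 ± 0.0349. The ranking from Stmn4 down to Chrnb3 was separated at each step by more than the spread between mice. Chrnb3 is a rare transcript in this tissue and rested on 7 to 41 reads per mouse. Amigo1 rested on 1664 to 2703 reads, Stmn4 on 2258 to 3395 and Apln on 272 to 608.

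Chrnb3 read 1.76, 1.76, 1.88, 2.06 and 2.28 normalized CPM in the 5 WT mice, from 31 to 41 counts. In APP/PS1 mice it read 0.501 at the lowest, 0.625 at the median and 1.05 at the highest, from 9 to 17 counts. In APP/PS1/FTnKO mice it read 0.328, 0.508 and 0.745, from 7 to 14 counts. The 12 transgenic mice all lay below the 5 WT mice, and the lowest WT mouse was 1.67 times the highest APP/PS1 mouse. The group means were 1.95 ± 0.222 (SD, n = 5), 0.690 ± 0.194 (n = 6) and 0.500 ± 0.156 CPM (n = 6), so the WT mean was 2.82 times that of APP/PS1 and 3.90 times that of APP/PS1/FTnKO.

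Amigo1 read 123, 129, 129, 140 and 141 normalized CPM in the 5 WT mice. In APP/PS1 mice it read 101 at the lowest, 107 at the median and 124 at the highest, and in APP/PS1/FTnKO mice 101, 106 and 114. One APP/PS1 mouse, at 124 CPM, lay just above the lowest WT mouse, and the 6 APP/PS1/FTnKO mice all lay below it. The means were 133 ± 7.78 (SD, n = 5), 110 ± 9.68 (n = 6) and 106 ± 4.81 CPM (n = 6).

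Stmn4 read 159, 161, 161, 164 and 171 normalized CPM in the 5 WT mice, a spread of 2.85% of the mean. In APP/PS1 mice it read 130 at the lowest, 142 at the median and 151 at the highest, and in APP/PS1/FTnKO mice 126, 133 and 138. Every transgenic mouse lay below every one of the 5 WT mice. The means were 163 ± 4.64 (SD, n = 5), 141 ± 7.88 (n = 6) and 132 ± 4.53 CPM (n = 6), the smallest relative difference of the 4 genes and the one with the least spread.

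Apln read 22.5, 27.4, 30.6, 33.8 and 35.4 normalized CPM in the 5 WT mice. In APP/PS1 mice it read 16.1 at the lowest, 20.8 at the median and 23.9 at the highest, and in APP/PS1/FTnKO mice 16.8, 21.4 and 23.7. Apln was the least separated of the 4, since the lowest WT mouse, a male, lay below 2 APP/PS1 mice and below 2 APP/PS1/FTnKO mice. The means were 29.9 ± 5.17 (SD, n = 5), 20.8 ± 2.91 (n = 6) and 21.0 ± 2.37 CPM (n = 6). In whole cortex, fewer cells of a type and less RNA per cell cannot be told apart for any of these genes.

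**Figure D1:**
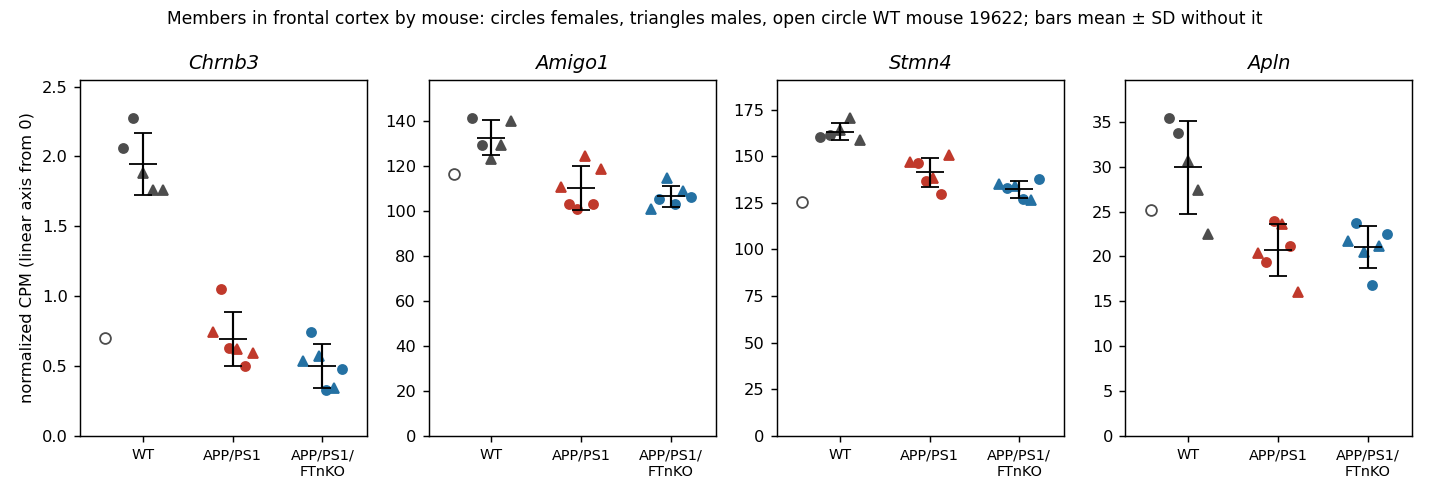
Normalized CPM (linear axes from 0) of the 4 genes in each mouse by genotype, with circles for females, triangles for males, an open circle for WT mouse 19622 and bars for the mean ± SD without it. Chrnb3 is 1.95 ± 0.222 CPM in WT mice and at most 1.05 CPM in each transgenic mouse, whereas for Apln the lowest WT mouse, at 22.5 CPM, lies among the transgenic mice.

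The contrast of APP/PS1 against WT chose the genes, so its values are a description. Over 17638 genes tested in 17 mice, 0.142% were called lower in this contrast (25 genes at FDR below 0.05, edgeR), and the 4 genes are among them because the choice made them so. The log2 fold change was -1.51 (SE 0.22) for Chrnb3, -0.53 (SE 0.11) for Apln, -0.26 (SE 0.055) for Amigo1 and -0.20 (SE 0.043) for Stmn4. Chrnb3 was the lower gene with the smallest p, Amigo1 was at place 3, Apln at place 4 and Stmn4 at place 6. At place 5, just inside the last of them but not among the 4, stood Mylk3, a myosin light chain kinase, with a log2 fold change of -0.95 (SE 0.20) against WT and of 0.046 in APP/PS1/FTnKO against WT. At place 7, just outside, stood Gm15663 with -0.56 (SE 0.12). Every APP/PS1 mouse lay below every WT mouse for 2 of the 4 genes, Chrnb3 and Stmn4, beside 0.624% of all genes tested.

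The APP/PS1/FTnKO mice did not take part in the choice, but they were compared with the same 5 WT mice. In APP/PS1/FTnKO against WT, 4 of the 4 genes were called lower (edgeR quasi-likelihood test with Benjamini-Hochberg adjustment over 17638 genes), beside 1.43% of all genes called lower. Since the genes were picked for counts that were high in these WT mice, nothing is read from the count against that share, and the values below are partly fixed by the choice. Chrnb3 fell by 1.98 on the log2 scale (SE 0.23, FDR = 2.1e-04), while Apln changed by -0.51 (SE 0.11, FDR = 0.0188), Amigo1 by -0.31 (SE 0.055, FDR = 0.00608) and Stmn4 by -0.30 (SE 0.043, FDR = 0.0015). In ratios, APP/PS1/FTnKO mice held 0.254 of the WT level of Chrnb3 (95% interval 0.182 to 0.354) and 0.700 of that of Apln (0.594 to 0.825). They held 0.806 of the WT level of Amigo1 (0.744 to 0.874) and 0.812 of that of Stmn4 (0.763 to 0.865). Each of the 6 APP/PS1/FTnKO mice lay below each of the 5 WT mice for Chrnb3, Amigo1 and Stmn4, beside 2.69% of all genes, a share from which nothing is read for the same reason. The Apln call was lost without WT mouse 18944 (log2 fold change -0.46, FDR = 0.0671) or without WT mouse 19053 (-0.49, FDR = 0.0642), the 2 WT mice in which Apln was highest.

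Between the 2 transgenic genotypes none of the 4 genes passed the test, beside 0.261% of all genes called in either direction. This contrast shares its APP/PS1 mice with the one that chose the genes. The log2 fold change of APP/PS1/FTnKO against APP/PS1 was -0.46 (95% interval -0.97 to 0.039, FDR = 0.485, edgeR) for Chrnb3 and -0.097 (-0.18 to -0.011, FDR = 0.372) for Stmn4. It was -0.047 (-0.16 to 0.064, FDR = 0.796) for Amigo1 and 0.020 (-0.21 to 0.25, FDR = 0.966) for Apln. In the order of the mean levels WT stood first for each gene, as the choice fixed against APP/PS1. No difference between the 2 transgenic genotypes passed the adjustment over all genes, although the unadjusted interval of Stmn4 lay below 0. For Chrnb3 the interval still allowed an APP/PS1/FTnKO level from 0.511 to 1.03 of the APP/PS1 level, with 7 to 17 reads per mouse behind it.

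**Figure D2:**
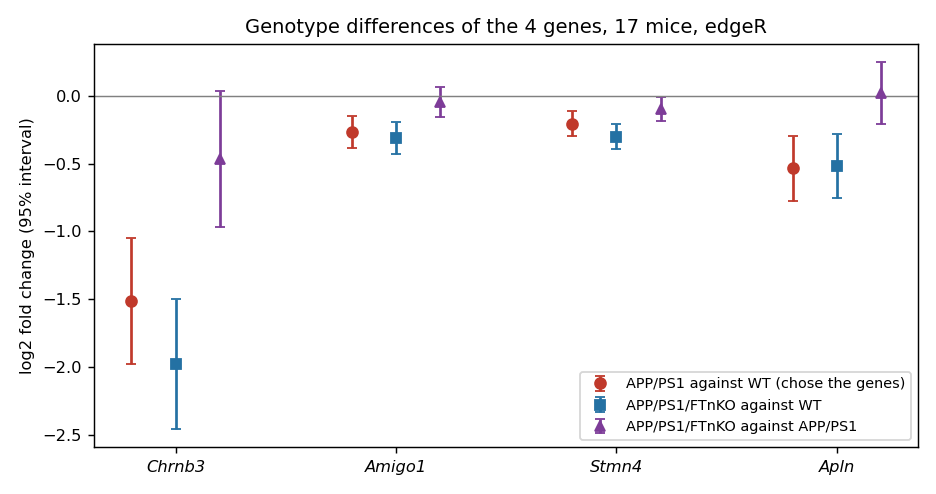
Log2 fold change (vertical axis) of the 4 genes with 95% intervals in the 3 genotype contrasts of 17 mice, from edgeR. The intervals of APP/PS1/FTnKO against WT end below 0 for each gene, and those of APP/PS1/FTnKO against APP/PS1 include 0 for Chrnb3, Amigo1 and Apln and end at -0.011 for Stmn4.

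Mouse 19622 was labelled WT but read below the 5 other WT mice in 3 of the 4 genes. Those 5 mice took part in the choice, so its place below them is partly fixed. Chrnb3 in mouse 19622 was 0.700 CPM from 14 counts (95% Poisson interval 0.382 to 1.17, counting error only), inside the range of the APP/PS1 mice and below the 5 other WT mice. Stmn4 was 125 CPM, below every other mouse in the table, Amigo1 was 116 CPM, below the 5 WT mice, and Apln was 25.2 CPM, below 4 of them. Of all genes tested, 35.8% were lower in mouse 19622 than in every other WT mouse. Since the 4 genes were picked for counts that were high in those WT mice, nothing is read from 3 of 4 against that share. With mouse 19622 counted as WT, the log2 fold change of APP/PS1/FTnKO against WT was -1.79 for Chrnb3 (FDR = 0.00378, edgeR) and -0.29 for Amigo1 (FDR = 0.0191). It was -0.25 for Stmn4 (FDR = 0.0535) and -0.47 for Apln (FDR = 0.0523), so those 2 calls were lost. In APP/PS1 against WT the log2 fold changes became -1.33, -0.24, -0.15 and -0.49 for Chrnb3, Amigo1, Stmn4 and Apln. The cerebellar signal of this library moved with these values, and its part in them was not tested.

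Sex had no part in the choice of the genes, and its effect was fitted beside that of genotype. None of the 4 genes was called between males and females, beside 0.068% of all genes. The log2 fold change of males against females was -0.18 (SE 0.19, FDR = 0.921, edgeR) for Chrnb3, -0.14 (SE 0.091, FDR = 0.819) for Apln, 0.075 (SE 0.045, FDR = 0.800) for Amigo1 and 0.035 (SE 0.035, FDR = 0.918) for Stmn4. Within WT mice the 2 females had 33.8 and 35.4 CPM of Apln and the 3 males 22.5 to 30.6, whereas in APP/PS1 mice the sexes overlapped at 19.4 to 23.9 and 16.1 to 23.6 CPM. Chrnb3 in WT mice read 2.06 and 2.28 CPM in the females and 1.76 to 1.88 in the males. For Amigo1 the sexes lay apart in APP/PS1 mice. The share of all genes with sexes apart in so few mice was not counted, so nothing is read from these separations. The 3 APP/PS1 females had 101 to 103 CPM of Amigo1 and the 3 APP/PS1 males 110 to 124, while WT females and males overlapped at 129 to 141 and 123 to 140 CPM.

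No sex by genotype term was called for any gene (0 of 18239 in APP/PS1 against WT and 0 in APP/PS1/FTnKO against APP/PS1, edgeR, with 744 and 613 at an unadjusted p below 0.05), so the background was 0%. DESeq2 called 2 and 1 genes and limma-voom 0 and 0. For Amigo1 the male minus female difference of APP/PS1 against WT was 0.26 on the log2 scale (SE 0.10, FDR = 1.0), and of APP/PS1/FTnKO against APP/PS1 it was -0.16 (SE 0.095, FDR = 1.0). For Apln the first of these was 0.27 (SE 0.22), for Chrnb3 0.13 (SE 0.48) and for Stmn4 0.050 (SE 0.091), each at FDR = 1.0. The interval for Chrnb3, from -0.90 to 1.16, is too wide to show whether the sexes differ.

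RNA integrity differed between the genotypes, with an RNA integrity number (RIN) of 8.5 to 8.8 in WT mice (median 8.7), 7.7 to 8.7 in APP/PS1 mice (8.2) and 7.6 to 8.7 in APP/PS1/FTnKO mice (8.6). The relation of RIN to each gene and of the genes to one another was read within genotype and sex, on residuals of 17 mice, as 10 relations. The permutations shuffled the 17 residuals freely and did not count the genotype and sex terms already fitted. Their p therefore tend to be too small, and whether any relation would pass with those terms counted was not tested. Amigo1 followed RIN, with Pearson's r = 0.695 (permutation p = 0.0019, adjusted 0.0190) and Spearman's rho = 0.706 (permutation p = 0.00223, adjusted 0.0223), and r = 0.707 without the 2 mice farthest from the median RIN. The 3 APP/PS1 females, the mice with 101 to 103 CPM of Amigo1, had RINs of 7.9 to 8.3, and 2 of the 3 APP/PS1 males had 8.6 and 8.7. The other male, at 110 CPM above the 3 females, had the lowest RIN of its genotype, 7.7. For Chrnb3, Stmn4 and Apln, r with RIN was -0.351, -0.130 and -0.243 (permutation p = 0.167, 0.622 and 0.346, adjusted 0.558, 0.996 and 0.692), with rho of -0.426, -0.136 and -0.301 (permutation p = 0.0906, 0.599 and 0.238, adjusted 0.302, 0.856 and 0.476). Without the 2 farthest mice these r were -0.257, -0.000829 and -0.157.

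With RIN as a covariate the log2 fold change of APP/PS1 against WT was -0.18 for Amigo1 in place of -0.26, -1.68 for Chrnb3, -0.21 for Stmn4 and -0.59 for Apln. In that fit the number of genes called lower in APP/PS1 against WT was 4 in place of 25, and 1 of the 4 genes was among them, Chrnb3. In APP/PS1/FTnKO against WT the 4 genes kept their calls with RIN as a covariate, at -2.07 for Chrnb3 (FDR = 2.3e-04, edgeR), -0.30 for Stmn4 (FDR = 0.00182), -0.26 for Amigo1 (FDR = 0.00825) and -0.55 for Apln (FDR = 0.0225). Restricted to mice of RIN 8 or more, they kept them too (FDR from 8.8e-04 to 0.0366). Chrnb3 and Stmn4 were the pair of genes most alike within genotype and sex, at r = 0.585 (permutation p = 0.0137, adjusted 0.0685) and rho = 0.522 (permutation p = 0.0336, adjusted 0.168), which did not pass the adjustment, and r was 0.528 without the 2 farthest mice. The other 5 pairs had r from -0.0869 to 0.286 (adjusted permutation p from 0.672 to 0.996) and rho from -0.154 to 0.311 (adjusted permutation p from 0.476 to 0.951).

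**Figure D3:**
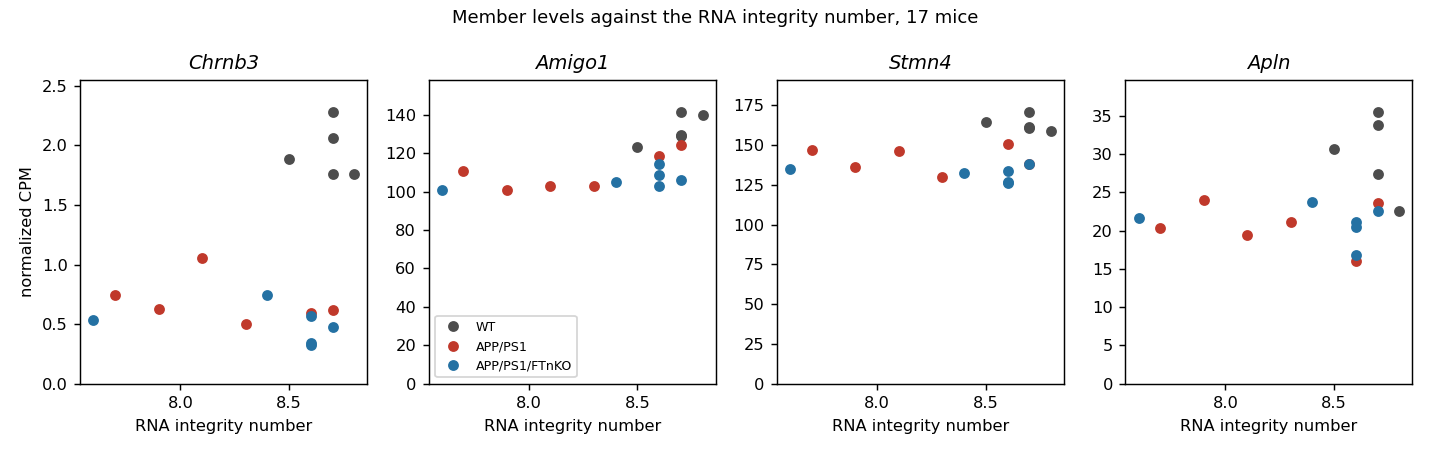
Normalized CPM (vertical axes from 0) of the 4 genes against the RNA integrity number of each of 17 mice, coloured by genotype. The WT mice sit at 8.5 to 8.8, and in APP/PS1 mice Amigo1 is 110 CPM at the lowest RIN of 7.7, 101 CPM at 7.9 and 124 CPM at 8.7.

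Chrnb3 was next read beside its receptor family. Of 16 nicotinic receptor subunit genes, 10 passed the filter on low counts, and Chrnb3, which the choice put there, was the 1 called in any genotype contrast, beside 0.142% and 1.43% of all genes called lower against WT. The median log2 fold change of the 10 was -0.11 in APP/PS1 against WT with 9 lower, beside -0.0012 and 50.4% lower over all genes tested, and -0.12 in APP/PS1/FTnKO against WT with 7 lower, beside 0.0064 and 48.4%. With mouse 19622 counted as WT the medians were -0.27 and -0.21. Chrnb2 and Chrna4, which form the common heteromeric receptor of the cortex, read 63.1 ± 2.05 and 39.0 ± 4.43 CPM in the 5 WT mice (mean ± SD). They read 59.3 ± 6.62 and 35.3 ± 4.79 in the 6 APP/PS1 mice, and 60.6 ± 5.38 and 31.4 ± 5.13 in the 6 APP/PS1/FTnKO mice. Neither was called, at log2 fold changes against WT of -0.090 (SE 0.076) and -0.14 (SE 0.11) in APP/PS1 mice. Chrna7, the homomeric receptor, was at -0.27 (SE 0.16, FDR = 0.482, edgeR), and Chrna10 at -0.54 (SE 0.61, FDR = 0.736).

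Chrna6, the alpha subunit that pairs with beta3 in dopamine neurons, is the next gene on chromosome 8, from 27403212 to 27413944 on the minus strand, 3.48 kb from Chrnb3. It fell below the filter at 0 to 3 counts per WT mouse, 3 to 6 per APP/PS1 mouse and 0 to 3 per APP/PS1/FTnKO mouse, so it was not tested. Markers of regions where Chrnb3 is known were read beside it. The summed CPM of 8 habenular markers was 99.8 to 111 in WT mice, 76.2 to 117 in those with APP/PS1 alone and 81.7 to 106 in APP/PS1/FTnKO, and none of the 6 tested was called. In APP/PS1 against WT the 6 were all lower, with a median of -0.20 on the log2 scale, and in APP/PS1/FTnKO against WT 4 of the 6 were lower, with a median of -0.051. That of 10 midbrain dopamine markers was 12.3 to 40.2, 15.4 to 39.3 and 19.5 to 31.4 in the same order, with none of the 5 tested called and the defining gene Pitx3 at 0 in WT mice. In APP/PS1 against WT 4 of the 5 were lower, with a median of -0.25, and in APP/PS1/FTnKO against WT 3 of the 5, with a median of -0.049, which was -0.70 with mouse 19622 counted as WT. Their part in the Chrnb3 values was not tested. Of 19 genes of the cholinergic synapse and of nicotinic receptor accessories, from Chat to Lynx1, none was called in any genotype contrast, beside 0.142% and 1.43% of all genes called lower against WT. In APP/PS1 against WT 17 of the 19 were lower, with a median of -0.11 on the log2 scale, beside 50.4% lower over all genes. In APP/PS1/FTnKO against WT 9 of the 19 were lower, with a median of 0.0062, beside 48.4%. The members farthest from 0 in APP/PS1 against WT were Chrm5 at -0.85 (SE 0.40) and Bche at -0.32 (SE 0.22).

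Amigo1 stood among several genes of the Kv2 channel complex that read lower. Of 16 genes of the AMIGO family and the Kv2 complex 15 were tested, and in APP/PS1 against WT 2 were called lower, Amigo1, which the choice put there, and Kcnb2, beside 0.142% of all genes, with 12 of 15 lower and a median of -0.11 beside -0.0012 over all genes. In APP/PS1/FTnKO against WT 5 were called lower and none higher, among them Amigo1, Kcnb2, Kcns1 and Kcnv1, beside 1.43% of all genes, with 13 of 15 lower and a median of -0.31 beside 0.0064 over all genes. With mouse 19622 counted as WT that median was -0.13 and 1 was called, Amigo1 itself. Kcnb2, a channel subunit of the complex, was at 29.2 ± 4.18 CPM in the 5 WT mice (mean ± SD), 21.7 ± 3.09 in the 6 APP/PS1 mice and 21.9 ± 2.27 in the 6 APP/PS1/FTnKO mice. Its log2 fold changes against WT were -0.43 (edgeR FDR = 0.0383) and -0.41 (FDR = 0.0313) in the transgenic genotypes.

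The silent subunits Kcns1 and Kcnv1, which join Kv2 channels, were at -0.38 (FDR = 0.0489, edgeR) and -0.49 (FDR = 0.0438) in APP/PS1/FTnKO against WT. Kcng3, another silent subunit, had -0.35 (SE 0.18) in APP/PS1 mice and -0.65 (SE 0.19, FDR = 0.0582) in APP/PS1/FTnKO mice. Of Amigo1's own paralogs, Amigo2 had log2 fold changes of 0.076 and 0.11 and Amigo3 of -0.025 and -0.49 (SE 0.23, FDR = 0.222) against WT in the 2 transgenic genotypes, and neither was called.

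**Figure D4:**
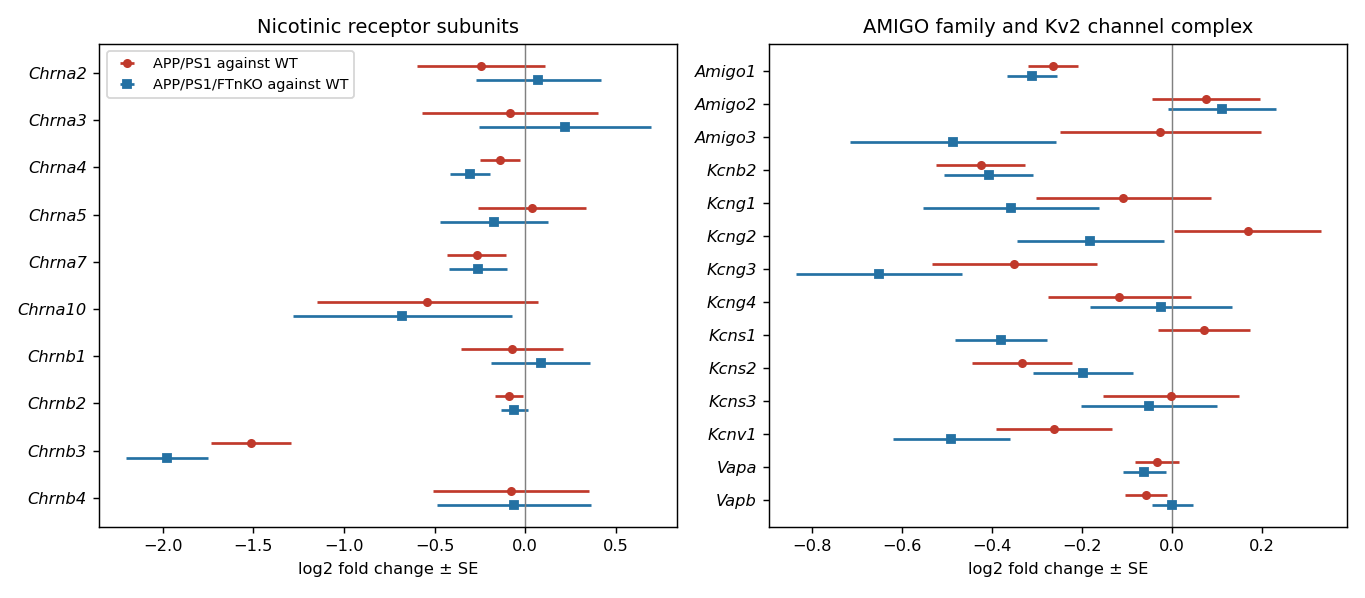
Log2 fold change ± SE (horizontal axes) of the tested nicotinic receptor subunits and of 14 of the 15 tested genes of the AMIGO family and Kv2 channel complex, in APP/PS1 and APP/PS1/FTnKO against WT. Chrnb3 at -1.51 and -1.98 stands away from the other subunits, which the choice of Chrnb3 partly fixed, and Amigo1 and Kcnb2 lie between -0.26 and -0.43 in both contrasts.

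Stmn4 was the 1 stathmin called. In 33 tested genes of stathmins and microtubule regulators, 2 were called lower in APP/PS1 against WT, Stmn4, which the choice put there, and Clasp2, beside 0.142% of all genes, with 22 lower and a median of -0.064 on the log2 scale beside -0.0012 over all genes. In APP/PS1/FTnKO against WT 3 were called lower, Stmn4, Clasp2 and Mark2, beside 1.43% of all genes, with 26 lower and a median of -0.099 beside 0.0064 over all genes. Counting mouse 19622 as WT left 1 called lower in each contrast, Clasp2. Stmn1, Stmn2 and Stmn3 read 333 ± 51.3, 294 ± 32.9 and 320 ± 12.7 CPM in the 5 WT mice (mean ± SD). Their log2 fold changes in APP/PS1/FTnKO against WT were -0.13 (SE 0.096), -0.061 (SE 0.078) and -0.099 (SE 0.054), beside -0.30 (SE 0.043) for Stmn4. Clasp2, a microtubule plus-end protein, was at -0.22 (FDR = 0.0362, edgeR) and -0.23 (FDR = 0.0205) against WT in the 2 transgenic genotypes, and Mark2, a kinase of microtubule-associated proteins, at 0.0056 and -0.16 (FDR = 0.0444). Dcx and Map1b were at -0.24 (SE 0.13) and -0.23 (SE 0.12) in APP/PS1 against WT and were not called.

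Markers of the cells that hold Amigo1 and Stmn4 were read beside them. None of 10 excitatory neuron markers and none of 10 interneuron markers was called in APP/PS1 against WT. The summed CPM of the excitatory markers was 6158 to 8224 in WT mice, 5630 to 7853 in APP/PS1 mice and 4629 to 6497 in APP/PS1/FTnKO mice, where Slc17a7, the vesicular glutamate transporter, was the 1 called, beside 1.43% of all genes called lower, at -0.45 against WT on the log2 scale (edgeR FDR = 0.0429). The sum of the interneuron markers was 936 to 1329, 959 to 1208 and 934 to 1249. The median log2 fold change in APP/PS1 against WT was -0.15 for the excitatory and -0.17 for the interneuron markers, next to -0.20 for Stmn4 and -0.26 for Amigo1. In APP/PS1/FTnKO against WT the 10 excitatory markers were all lower, with a median of -0.24, and 7 of the 10 interneuron markers were lower, with a median of -0.092, next to -0.30 for Stmn4 and -0.31 for Amigo1. With mouse 19622 counted as WT the marker medians in APP/PS1 against WT were 0.058 and 0.044, and in APP/PS1/FTnKO against WT 0.024 and -0.014. Their part in the values of the 2 neuronal genes was not tested. Of 10 microglial markers 5 were called higher in APP/PS1 against WT (among them Cx3cr1, Csf1r, C1qa and C1qc) and 3 in APP/PS1/FTnKO against WT, beside 1.31% and 2.14% of all genes called higher, and of 10 astrocyte markers 1 was called higher in both, Gfap. In APP/PS1 against WT the 10 microglial, 10 astrocyte and 8 oligodendrocyte precursor markers were all higher, at medians of 0.59, 0.17 and 0.095. Of 10 oligodendrocyte markers 5 were higher. In APP/PS1/FTnKO against WT 8, 8, 6 and 7 were higher in the same order. Markers of oligodendrocytes, their precursors, striatum, thalamus, olfactory bulb, cerebellum, choroid plexus and cortical layers had no call in any genotype contrast, and among hippocampal markers Fibcd1 was called lower in APP/PS1/FTnKO against WT. The Slc17a7 and Fibcd1 calls were lost with mouse 19622 counted as WT. The 6 olfactory bulb markers were all lower in APP/PS1/FTnKO against WT, at a median of -0.99, and summed to 35.1 to 93.0 CPM in WT mice, 36.3 to 125 in those with APP/PS1 alone and 10.6 to 71.0 in APP/PS1/FTnKO. The 4 tested choroid plexus markers were all higher in APP/PS1 against WT, at a median of 0.56, with sums of 7.99 to 75.1, 13.1 to 458 and 5.94 to 22.8 CPM in the same order of genotypes, where the median mouse had 13.4, 15.9 and 13.9 CPM. Counting mouse 19622 as WT turned that median to -0.50, and moved the cerebellar medians of APP/PS1 and APP/PS1/FTnKO against WT from -0.11 and 0.018 to -3.24 and -3.27. The part of these markers in the values of the 4 genes was not tested.

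Apln was read beside the vessel. Of 26 genes of the apelin system and endothelial tip cells 22 were tested, and Apln, which the choice put there, was the 1 called in any genotype contrast, beside 0.142% and 1.43% of all genes called lower against WT. Counting mouse 19622 as WT left none called. The median log2 fold change of the list was 0.018 in APP/PS1 against WT, with 10 of 22 lower, beside -0.0012 and 50.4% lower over all genes. It was -0.051 in APP/PS1/FTnKO against WT, with 17 of 22 lower, beside 0.0064 and 48.4%. The receptor Aplnr was below the filter at 4 to 6 counts per WT mouse, 3 to 12 per APP/PS1 mouse and 1 to 12 per APP/PS1/FTnKO mouse. Apela, the other ligand of Aplnr, had at most 1 count in any mouse. Plaur, the urokinase receptor, and Cxcr4, a chemokine receptor, had the largest values in APP/PS1 against WT, at 1.22 (SE 0.33, FDR = 0.0808, edgeR) and 0.59 (SE 0.33), opposite in sign to Apln.

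None of 20 endothelial and none of 12 mural cell markers was called, and 14 and 10 of them were higher in APP/PS1 against WT, at medians of 0.069 and 0.091 beside -0.53 for Apln. The summed endothelial CPM was 613 to 743 in WT mice, 600 to 857 in APP/PS1 mice and 490 to 814 in APP/PS1/FTnKO mice. Of 19 targets of hypoxia-inducible factors, the family to which Apln is usually counted, none was called, with a median of 0.024 in APP/PS1 against WT and -0.064 in APP/PS1/FTnKO against WT. The largest values in APP/PS1 against WT were those of Hk2, a hexokinase, at 0.76 (SE 0.19, edgeR FDR = 0.0504), just outside the threshold, and Car9, a carbonic anhydrase, at 0.32 (SE 0.43).

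The nearest tested gene on either side of each of the 4 was read in the same way, which for Chrnb3 passes over the untested Chrna6. Eif4ebp1, 92.0 kb from Chrnb3, was at 0.28 (SE 0.19) in APP/PS1 against WT, and Unc5d, 1247 kb away on the other side, at -0.14 (SE 0.093). Cyb561d1 and Gpr61, 3.40 and 31.5 kb from Amigo1, were at 0.0021 (SE 0.068) and -0.061 (SE 0.080). Trim35, 32.9 kb from Stmn4, was at -0.0068 (SE 0.038), and Adra1a, 274 kb away, at -0.45 (SE 0.13, FDR = 0.126, edgeR). Ocrl, 59.3 kb from Apln, was at -0.026 (SE 0.050), and Sash3, 112 kb away, at 0.47 (SE 0.22). None of these 8 neighbours was called. Within 1 Mb, 0 of 9 tested genes were called around Chrnb3, 1 of 44 around Amigo1, 1 of 17 around Stmn4 and 0 of 13 around Apln, beside 1.31% of all genes called higher and 0.142% called lower. The called ones were higher, Csf1 at 0.76 (FDR = 0.00606) and Clu at 0.44 (FDR = 0.0412).

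**Figure D5:**
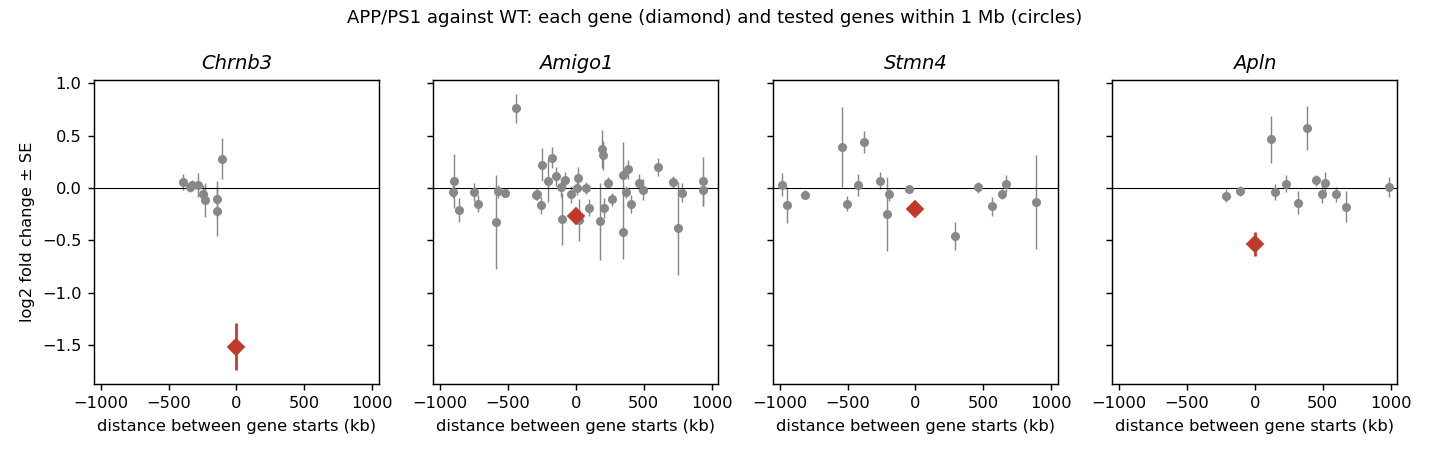
Log2 fold change ± SE of APP/PS1 against WT (vertical axis) for each of the 4 genes (diamonds) and the tested genes within 1 Mb (circles), by the distance between gene starts in kb. Chrnb3 at -1.51 and Apln at -0.53 lie below all of their tested neighbours, whose lowest values are -0.22 and -0.18, whereas the ranges around Amigo1 and Stmn4 extend below them to -0.42 and -0.45. This contrast chose the 4 genes and not the neighbours, so nothing is read from the places of the diamonds.

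The genes whose log2 CPM followed each of the 4 most closely over the 17 mice, genotype differences included, were found by Pearson's r over 17638 genes. Chrnb3 and Stmn4 were each other's closest gene, at r = 0.918, although they differ in level per kb by more than any other pair. Cacna1i, a T-type calcium channel, was second for both, at r = 0.871 and 0.866, and first for Amigo1, at r = 0.883, with Castor2, a cytosolic arginine sensor, also close at 0.879. Dab2ip was the third for Stmn4, at 0.851. Apln was nearest to Adamts4, a secreted protease, at r = 0.841, to Alms1 at 0.829 and to the laminin gene Lama2 at 0.799. These values share libraries, scaling and the genotype difference that chose the genes. After genotype and sex were taken out, r of Chrnb3 with Stmn4 was 0.585, and the closest genes were different ones.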

How the data were processed

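Polyadenylated RNA of the frontal cortex of 18 mice was sequenced as stranded libraries. Reads were trimmed (Trimmomatic 0.33), placed on GRCm38 (HISAT2 2.1.0) and summed per gene by featureCounts, and the raw counts the authors deposited were used as they stand. For the counting, annotation and strand setting were not given in the sources used here. Total counts per mouse ran from 15925432 to 21030935. Counts were scaled by TMM, filtered by filterByExpr on the design (minimum count 10, 17638 genes left) and tested with edgeR 4.0.16 (R 4.3.3), by quasi-likelihood with sex and genotype as terms and Benjamini-Hochberg adjustment (FDR threshold 0.05), in 17 mice. Normalized CPM use the TMM library sizes, and mouse 19622 is scaled in a fit of 18 mice. DESeq2 1.42.0, limma-voom (limma 3.58.1), other filters and scalings, RIN as a covariate and leaving out each mouse were alternatives. The scripts were tested on simulated counts.

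The study left out 1 WT mouse as an outlier, and mouse 19622 was kept apart here. The 4 genes and the gene lists were chosen with earlier results of these data known. Named genes were the members, called genes and the 2 largest changes of each list, family partners, nearest tested neighbours, the 3 genes most like each member, and the lower genes at the edge of the choice. Some genes that this rule would name are not reported here. Positions come from GENCODE M21. Promoters of Chrnb3 and Stmn4 were not analysed here. Correlations used log2 CPM with a prior count of 2, and their two-sided p came from 100000 free permutations of residuals, which did not count the fitted terms.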

Additional observations from a re-analysis of the deposited data

Results flagged for a closer look

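Among 64 groups examined for a mouse far from the rest, 5 had one, where chance gives about 1 group in 20. Nothing is read from 5 against that rate. Mouse 19622 was already set apart, and the WT mice beside it took part in the choice of the genes. A single count among zeros is flagged whatever its size. With mouse 19622 counted among 6 WT mice, its Chrnb3 was lowest at 0.700 normalized CPM with the next mouse at 1.76, and its Stmn4 was lowest at 125.4 CPM with the next at 159.5. Amigo3 was high in APP/PS1 mouse 16975, at 2.67 CPM with the next at 1.86, in the APP/PS1 library of the lowest RIN. Stmn2 was high in WT mouse 19718, at 351.5 CPM with the next at 292.9, the mouse in which Stmn4 was also the highest of the WT mice. Apela was at 0.0483 CPM, a single count, in APP/PS1 mouse 19554 and at 0 in the other 5 APP/PS1 mice. The cause of these values was not tested.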

How the results depend on the processing

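Of 680 values of the 4 genes under the alternatives, 660 kept their direction and side of the threshold, where APP/PS1 against WT, which chose the genes, was judged by its fold change alone. In that contrast 4 of the 4 genes were among those called, with 3 without a filter, 2 with mouse 19622 or from the 2 genotypes alone, 1 with RIN as a covariate or in mice of RIN at least 8, and 1 to 4 without 1 mouse. The sign turned in 16 values, all uncalled. Without 1 mouse, Apln in APP/PS1/FTnKO against APP/PS1 ran from -0.035 to 0.096, its sex by genotype term in that contrast from -0.026 to 0.25 and that of Chrnb3 from -0.29 to 0.39, and the Chrnb3 term in APP/PS1 against WT from -0.079 to 0.46. That last term was -0.26 with mouse 19622 and -0.076 in mice of RIN at least 8, the Stmn4 term in the same contrast was -0.070 with mouse 19622, and the Chrnb3 term in APP/PS1/FTnKO against APP/PS1 was -0.16 with RIN as a covariate. With mouse 19622 as WT, APP/PS1/FTnKO against WT lost the calls of Stmn4 (-0.25, FDR = 0.0535, edgeR) and Apln (-0.47, FDR = 0.0523). Leaving out 1 mouse at a time, Apln in that contrast ranged from -0.59 to -0.44 and lost its call without WT mouse 18944 or 19053. DESeq2, limma-voom, other scalings and other filters kept all 4 calls in that contrast. At the minimum count of 30, Chrnb3 passed the filter only through the WT mice, with 31 to 41 counts beside 7 to 17 in the transgenic mice. Nothing is read from its call in that setting. The cause of these losses was not tested, but the common dispersion was 0.0173 in 17 mice and 0.0404 in 18. Genes called over the whole table moved more. APP/PS1 against WT called 256 genes, with 457 by DESeq2, 452 without a filter, 86 with RIN as a covariate, 120 in mice of RIN at least 8, and 121 to 457 without 1 mouse. APP/PS1/FTnKO against APP/PS1 called 46, with 244 by DESeq2, 239 with RIN, 104 without a filter, 71 at a minimum count of 30, 14 in mice of RIN at least 8, 5 from the 2 genotypes alone, 2 with mouse 19622 and 10 to 78 without 1 mouse. APP/PS1/FTnKO against WT called 631, with 1301 by DESeq2, 971 without a filter, 360 with RIN, 368 in mice of RIN at least 8, 281 with mouse 19622 and 214 to 975 without 1 mouse. Males against females called 12, with 30 by DESeq2 and 50 without a filter. The interactions called 0, with 65 and 43 without a filter, where sparse genes enter. The filter on genotype alone and the RIN limit were chosen after seeing the data. No paired analysis was possible because the labels number each mouse once and tie none to a mouse of another genotype. For Chrnb3, 7 to 41 counts per mouse limit the precision.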

Other observations

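The variation that remained within genotype and sex gave each of the 4 genes other companions, described here by Pearson's r of residuals over 17 mice, with no test. Apln went with Crabp2, a retinoic acid binding protein (r = 0.860), and with Prelp and Dcn, proteoglycans of connective tissue (r = 0.856 and 0.832), whose log2 fold changes in APP/PS1 against WT were -0.11, -0.16 and -0.16. Stmn4 went with Tes3-ps, a pseudogene (0.865), with Nefl, the light neurofilament chain (0.812), and with Ap1b1 (0.800). Amigo1 went with Elmo2 (0.863), Snrk (0.854) and Sipa1l1 (0.852), and Chrnb3 with Spag8 (0.788), Xrn1 (0.768) and AI854703 (0.759). Amigo1 itself rose with RIN on the same residuals (r = 0.695), and the part of RIN in its companions was not tested.

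With mouse 19622 among the 18 mice the closest gene of Chrnb3 was still Stmn4 (r = 0.888), while that of Amigo1 was Nectin1 (0.872) and that of Apln was C1qtnf1 (0.796). All of these values share libraries and scaling.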
